A study of Arabidopsis thaliana with 6 samples.

Results

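The catalase, superoxide dismutase and ascorbate peroxidase genes described here were chosen with earlier results of these data known. The 10 loci of Arabidopsis thaliana were taken by locus identifier. They are the catalases CAT1 (AT1G20630), CAT2 (AT4G35090) and CAT3 (AT1G20620), the iron superoxide dismutases FSD1 (AT4G25100) and FSD2 (AT5G51100), the manganese superoxide dismutase MSD1 (AT3G10920), the ascorbate peroxidases APX1 (AT1G07890), SAPX (AT4G08390) and TAPX (AT1G77490), and the dehydroascorbate reductase DHAR2 (AT1G75270). They held 30 of the 43550 probes kept, and 10 of the 25388 loci with a probe. Whole seedlings were 14 days old and of the Columbia background, and they came from the ago2 mutant lines ago2a and ago2c and from the wild type (WT). The ago2 lines carry mutations in ARGONAUTE2, whose product is guided by small RNAs, and the labels do not describe the mutations. Irradiated seedlings received 200 Gy of gamma rays from a cobalt source at 50 Gy per hour over 4 hours and were sampled after 24 hours, while mock seedlings were not irradiated. Each of the 6 combinations of line and treatment was measured on 1 single-colour array with RNA pooled from 3 batches of seedlings, and no condition was repeated. Lines therefore serve as replicates in the tests of the response to irradiation. The genotype test counts both arrays of a line as separate samples. Within a gene's order, 2 arrays that are neighbours cannot be shown to differ.

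Superoxide dismutases turn superoxide into hydrogen peroxide, with iron enzymes in the chloroplast and cytosol and a manganese enzyme in mitochondria. Catalases of the peroxisome break hydrogen peroxide down without a reducing partner, and in green tissue CAT2 removes the peroxide that photorespiration forms. Ascorbate peroxidases use ascorbate to reduce hydrogen peroxide in the cytosol (APX1), the chloroplast stroma and mitochondria (SAPX) and at the thylakoid membrane (TAPX), and dehydroascorbate reductases such as the cytosolic DHAR2 return oxidised ascorbate to its reduced form. Gamma rays split water in tissue and so form reactive oxygen species.

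The level of a gene is given as the log2 of the processed spot signal minus the 75th percentile of its array. The probe with the highest mean stood for a gene, and 29 of the 30 probes were well above background, by the scanner software's own flag, on all 6 arrays. The dimmest of 3 probes of CAT1 was not well above background on any array. The median signal of an array lay between 229 (ago2c irradiated) and 468 (ago2a mock), with 70.5% to 73.4% of probes well above background and no saturated spot, and the number of arrays limits the precision. The probe of AGO2 was well above background in neither ago2 line and on both WT arrays. Leaf markers, such as photosynthesis genes, were well above background on all 6 arrays for 10 of 10 genes, and root markers for 8 of 10, with the nitrate transporter gene NRT2.1 on 3 arrays and the iron transporter gene IRT1 on 4. The arrays also parted by how the other probes of a locus stood to its brightest one. The first array group held both WT arrays and ago2a mock, and the second held both ago2c arrays and ago2a irradiated. The second group also had the lowest median signals, 229 to 296, against 419 to 468 in the first. The irradiated and mock arrays of ago2a thus lay in different array groups, and what set the groups apart was not tested.

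The first comparison asked how the 10 genes responded to irradiation over the 3 lines. On their brightest probes all 10 had a higher mean on the irradiated arrays than on the mock arrays. The log2 differences ran from 0.084 (CAT2) to 0.38 (CAT3) with a median of 0.25, against a median of 0.014 over the 20171 loci tested, of which 10702 were above 0. None of the 10 passed the test over all loci (limma with line as a block, smallest adjusted p = 0.29), where 0.238% of all loci did. That background was 48 loci, and it turned on the lines: 0 loci were called without ago2a, 14 without ago2c and 1095 without WT, with none of the 10 among them. An unadjusted p under 0.05 was reached by 4 of the 10, CAT1, CAT3, APX1 and SAPX, against 13.9% of all loci. All 4 were higher after irradiation, which 5.66% of all loci were at that threshold. Higher on the irradiated array in each of the 3 lines were 5 of the 10, against 21.3% of all loci. For these 5 every irradiated array also lay above every mock array. The share of all loci for which this held was not counted, and by its definition it cannot be above 21.3%. On its brightest probe and with this scaling none of the 10 differed 2-fold or 1.5-fold between irradiated and mock in any line. The largest differences were 1.49-fold for FSD2 and 1.48-fold for CAT3, both in ago2a. The 1.5-fold count was not repeated with other scalings. With median scaling or the authors' values the mean differences were larger, at 0.47 for CAT3 and 0.34 for FSD2. The 1.5-fold count need not hold there. Over all loci a 2-fold higher signal was found in 1.39% in ago2a, 1.27% in ago2c and 1.27% in WT, and a 2-fold lower one in 7.39%, 5.5% and 1.57%. At 1.5-fold the shares were 6.27% in ago2a, 3.17% in ago2c and 3.64% in WT for higher signals, and 13.9%, 9.47% and 3.98% for lower ones. Without ago2a, 9 of the 10 means were above 0, with CAT2 at -0.071.

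**Figure D1:**
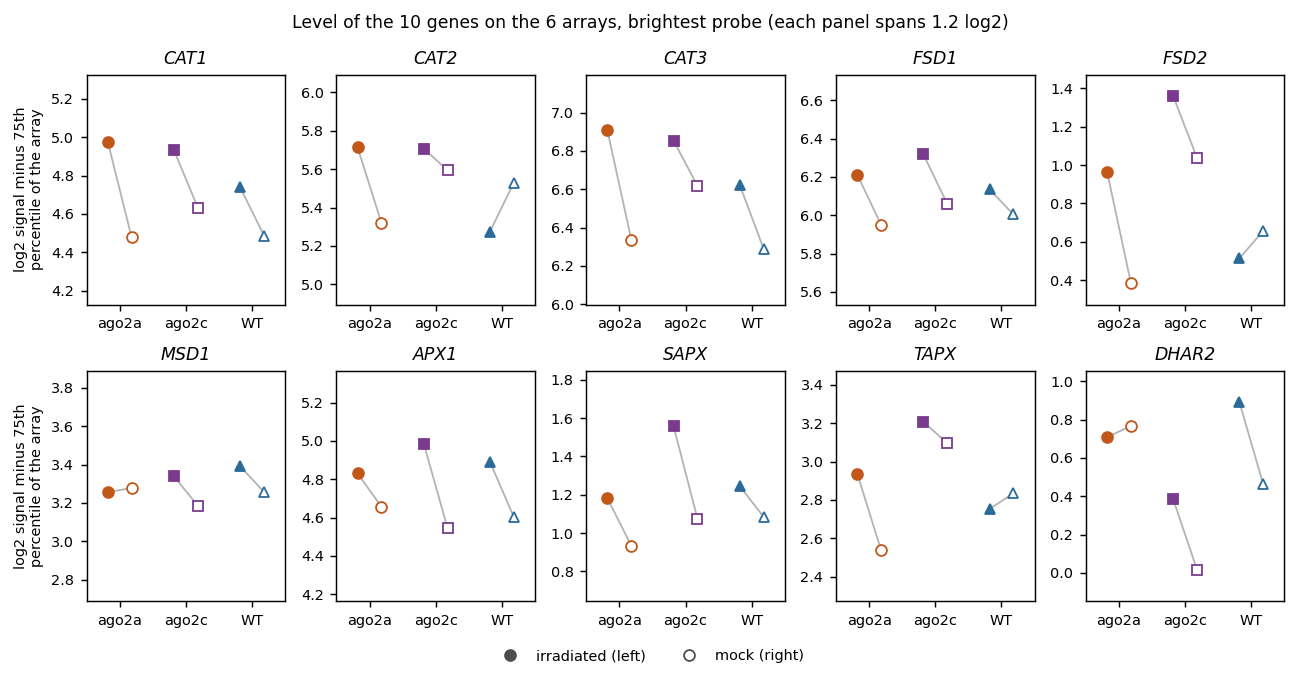
Level of each of the 10 genes on each of the 6 arrays, as log2 processed signal of the brightest probe minus the 75th percentile of the array, with filled symbols for irradiated and open symbols for mock seedlings of ago2a, ago2c and WT. Each point is 1 array and each panel spans the same range; CAT1, CAT3, FSD1, APX1 and SAPX lay higher in irradiated seedlings of all 3 lines, and CAT2, FSD2 and TAPX in those of both ago2 lines and not of WT.

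Among the superoxide dismutase genes, FSD1 is the one whose transcript is known to accumulate when copper is scarce. FSD1 stood at 6.21 in ago2a, 6.32 in ago2c and 6.14 in WT after irradiation, against 5.95 in ago2a, 6.06 in ago2c and 6.005 in WT after mock treatment. The 3 irradiated arrays were above the 3 mock arrays without overlap, though only by 0.22 ± 0.09 on average (log2, SE, n = 3 lines; limma adjusted p = 0.40).
FSD2, whose product works with its partner FSD3 at the chloroplast nucleoids, stood at 0.96 in ago2a, 1.36 in ago2c and 0.51 in WT after irradiation, against 0.39, 1.04 and 0.66 in the mock seedlings of ago2a, ago2c and WT. Both ago2 lines were higher after irradiation and WT was lower, so that the treatments overlapped, and the range over the 6 arrays, 0.97, was the widest of the 10 genes. MSD1 spanned the least, 0.21. Its levels were 3.26 in ago2a, 3.34 in ago2c and 3.39 in WT after irradiation, against 3.28 in ago2a, 3.18 in ago2c and 3.26 in WT after mock treatment, with ago2a irradiated below ago2a mock. The mean difference of MSD1 was 0.089 ± 0.094 (log2, SE, n = 3 lines; limma adjusted p = 0.67), and 0.14 without ago2a and 0.056 without ago2c.

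The catalase genes did not share a pattern. CAT3 stood at 6.91 in ago2a, 6.85 in ago2c and 6.62 in WT after irradiation, against 6.34 in ago2a, 6.62 in ago2c and 6.29 in WT after mock treatment. Every line was higher after irradiation, and the order of the arrays put the irradiated ones first, with WT irradiated and ago2c mock next to each other. The mean difference was 0.38 ± 0.11, a 1.30-fold difference (log2, SE, n = 3 lines; limma adjusted p = 0.29).
CAT1, which lies beside CAT3 in the genome and is best known from seeds and stressed tissue, stood at 4.98 in ago2a, 4.93 in ago2c and 4.74 in WT after irradiation, against 4.48 in ago2a, 4.63 in ago2c and 4.49 in WT after mock treatment. The irradiated arrays were again all above the mock arrays, by 0.35 ± 0.10 on average (log2, SE, n = 3 lines; limma adjusted p = 0.29).
CAT2 stood at 5.71 in ago2a, 5.71 in ago2c and 5.27 in WT after irradiation, against 5.32 in ago2a, 5.59 in ago2c and 5.53 in WT after mock treatment. Its highest and its lowest array were both irradiated ones, ago2a and WT, and the mean difference of 0.084 ± 0.16 lay within its error (log2, SE, n = 3 lines; limma adjusted p = 0.82). The catalase genes are alike in sequence, and whether a probe also binds transcripts of another family member was not tested.

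The cytosolic and stromal ascorbate peroxidase genes behaved alike on their brightest probes. APX1 stood at 4.83 in ago2a, 4.99 in ago2c and 4.89 in WT after irradiation, against 4.66 in ago2a, 4.54 in ago2c and 4.60 in WT after mock treatment, with no overlap between the treatments. Its mean difference was 0.30 ± 0.10 (log2, SE, n = 3 lines; limma adjusted p = 0.33).
SAPX stood at 1.18 in ago2a, 1.56 in ago2c and 1.24 in WT after irradiation, against 0.93 in ago2a, 1.08 in ago2c and 1.09 in WT after mock treatment, also without overlap. The mean difference was 0.30 ± 0.11 (log2, SE, n = 3 lines; limma adjusted p = 0.36).
TAPX stood at 2.94 in ago2a, 3.21 in ago2c and 2.75 in WT after irradiation, against 2.54 in ago2a, 3.10 in ago2c and 2.83 in WT after mock treatment. Like CAT2 and FSD2 it was higher in both irradiated ago2 lines and lower in irradiated WT, and both ago2c arrays were above the other 4. DHAR2 stood at 0.71 in ago2a, 0.38 in ago2c and 0.89 in WT after irradiation, against 0.77 in ago2a, 0.016 in ago2c and 0.46 in WT after mock treatment. Both ago2c arrays and WT mock were its 3 lowest, and its difference over lines was 0.25 ± 0.14 (log2, SE, n = 3 lines; limma adjusted p = 0.47), and 0.40 without ago2a and 0.15 without WT.

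**Figure D2:**
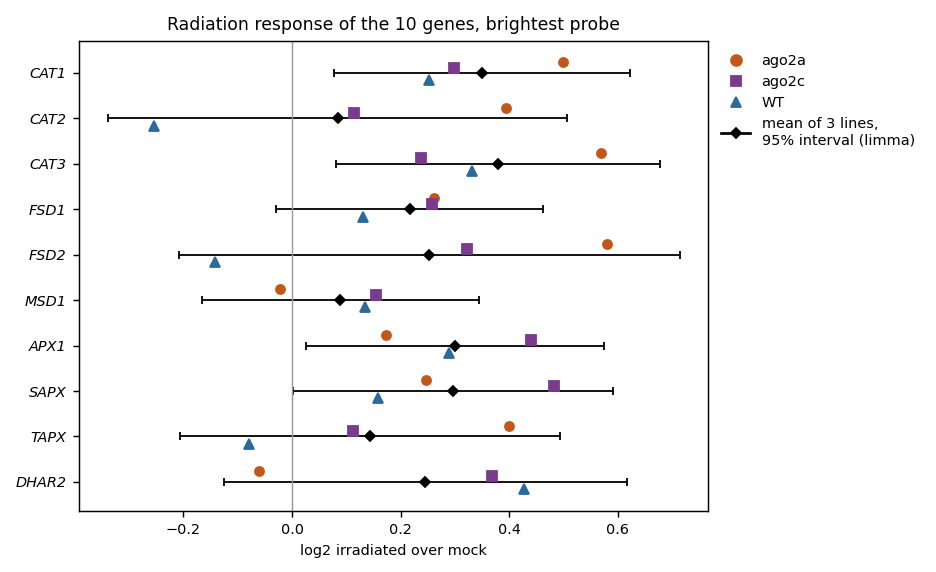
Radiation response of each gene on its brightest probe, as log2 irradiated over mock, with a symbol for each line and a diamond for the mean of 3 lines with its 95% interval from limma. The intervals of CAT1, CAT3, APX1 and SAPX lie above 0 before adjustment over 20171 loci and none passed after it; WT lies below 0 for CAT2, FSD2 and TAPX.

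Several probes of 1 gene gave a second view of the same RNA sample. They share their array and their source, so they are not replicates. Not all were assigned to the same RefSeq transcript. The probes of APX1 were assigned to 3 transcripts, and those of CAT3, FSD1 and SAPX to 2 per gene. Of the 10 genes 7 had more than 1 bright probe, meaning one well above background on each of the 6 arrays, 26 in all, of which 19 were other than the brightest. CAT3 had 9 such probes and APX1 7. In WT all 19 other probes were higher on the irradiated array, against 58.6% of the 7273 other probes of all such loci, and in ago2c 18 of 19 were, against 56%. In ago2a 3 of 19 were higher, against 36.9%, and 16 were lower, 9 of them at least 2-fold, against 14.9%. Probes of 1 gene are not independent of each other, and CAT3 and APX1 gave 14 of the 19.

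For CAT3 the 9 probes gave responses between 0.13 and 0.73 (log2) in WT and between -0.045 and 0.44 in ago2c. In ago2a 3 probes were higher, at 0.57, 0.24 and 0.61, and the other 6 lay between -1.26 and -0.75. The last of the 3, at 0.61, was the 1 probe assigned to another RefSeq transcript of CAT3 than the remaining 8. All 7 probes of APX1 were higher in ago2c, between 0.37 and 0.54, and in WT, between 0.0043 and 0.39. In ago2a the brightest probe of APX1 was at 0.17 and the other 6 between -1.45 and -0.63, so the sign of its ago2a response depended on the probe.

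In smaller sets of probes the other probe was also lower in ago2a than the brightest. For DHAR2 both lay below 0 in ago2a, with the brightest at -0.060, so its sign there did not depend on the probe. The other probe of FSD1 was at -0.95 in ago2a, 0.33 in ago2c and 0.15 in WT, that of SAPX at -0.94 in ago2a, 0.51 in ago2c and 0.43 in WT, and that of DHAR2 at -0.95 in ago2a, 0.32 in ago2c and 0.49 in WT. The other bright probe of CAT1 was at -0.37 in ago2a, 0.12 in ago2c and 0.049 in WT. MSD1 was the exception, with its other probe at 0.034 in ago2a, 0.12 in ago2c and 0.10 in WT. These were close to the brightest, which was at -0.022 in ago2a. Probes of both signs occurred in ago2a for 6 of the 7 genes, against 43.5% of the 5615 loci with several bright probes, in ago2c for 1 of the 7, against 23.3%, and in WT for 0 of the 7, against 27.3%. Every bright probe was higher after irradiation in both ago2c and WT for 6 of the 7 genes, all but CAT3, against 21.5% of those 5615 loci. This held in all 3 lines for 0 of the 7, against 7.73% of those loci.

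**Figure D3:**
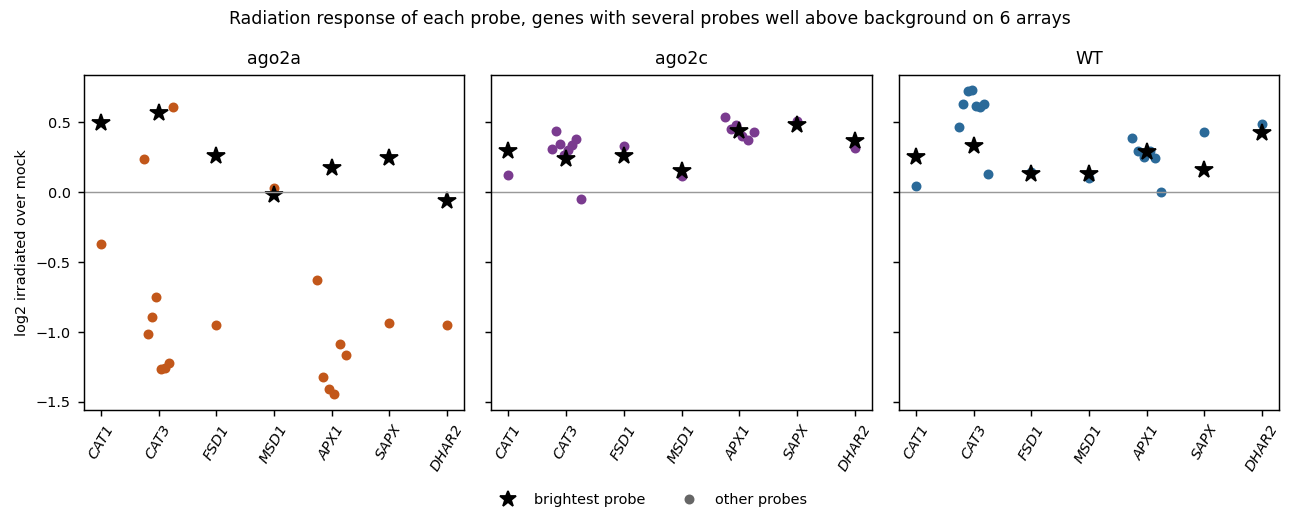
Radiation response of each probe, as log2 irradiated over mock, for the 7 genes with more than 1 bright probe, with stars for the brightest probe and dots for the others, and a panel for each line. Of the 19 other probes, 18 lie above 0 in ago2c and all 19 in WT, while in ago2a 16 of the 19 lie below 0.

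The array groups were drawn from the other probes minus the brightest over the 5615 loci, these 7 genes among them. That the probes parted along the groups is therefore partly built in, and the values describe the shift without testing it. The median of the other probes minus the brightest was lower on every array of the second group than on any array of the first for 6 of the 7 genes, all but MSD1, against 62.5% of the 5615 loci. Averaged by group this shift was at least 2-fold for CAT3 (-1.63), APX1 (-1.47) and FSD1 (-1.20), just under 2-fold for SAPX, and smaller for DHAR2 (-0.86) and CAT1 (-0.62), where 11.6% of the 5615 loci passed 2-fold. Within ago2a, whose arrays lie in different groups, the other probes moved against the brightest by more than 2-fold for 4 of the 7 genes, CAT3, FSD1, APX1 and SAPX, against 14.2% of the loci. Within ago2c (0.445% of the loci) and within WT (0.178%) this happened for 0 of the 7. The part of whatever set the array groups apart in the ago2a responses was not tested. When probes of a gene were averaged, 9 of 10 genes still had a mean radiation response above 0, with APX1 at -0.094, and the median of the 10 dropped to 0.096. CAT2, FSD2 and TAPX have 1 probe each and allow no such check.

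The second comparison, which the title of the series names, set the response of the ago2 lines against that of WT. None of the 10 genes passed (limma, smallest adjusted p among the 10 = 0.71), nor did any of the 20171 loci, which is 0%, and 0 of the 10 reached an unadjusted p under 0.05 against 8.8% of loci. The fit had 1 residual degree of freedom, and its count over all loci depended on the processing: 557 loci passed with normexp, 637 with median scaling, 640 with the authors' values and 212 with trended variances, none of the 10 among them. The largest differences were those of the genes for which both ago2 lines were above 0 and WT below it. FSD2 responded with 0.58 in ago2a and 0.32 in ago2c against -0.14 in WT, a difference of 0.59 ± 0.25 (log2, SE; 95% interval -0.10 to 1.29). For CAT2 the responses were 0.39 in ago2a and 0.11 in ago2c against -0.25 in WT, a difference of 0.51 ± 0.26 (log2, SE; 95% interval -0.20 to 1.21). TAPX had 0.40 in ago2a and 0.11 in ago2c against -0.080 in WT, a difference of 0.34 ± 0.26 (log2, SE; 95% interval -0.37 to 1.04), which was 0.19 without ago2a. This arrangement of signs was found in 3 of the 10 genes and in 16.3% of all loci.

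Genes of green tissue had similar signs in part. Both ago2 lines were above 0 and WT below it for 5 of 10 leaf markers and for 5 of 9 photorespiration genes, against the same 16.3% of all loci. The median response of the 10 leaf markers was 0.37 in ago2a and 0.13 in ago2c against -0.011 in WT, and that of 9 photorespiration genes 0.52 in ago2a and 0.13 in ago2c against -0.0013 in WT. Root markers had medians of -1.47 in ago2a and -1.62 in ago2c against 0.066 in WT, and 5 of 10 had both ago2 lines below 0 and WT above it, against 12% of all loci. Summed over the 10 root markers, the linear level was 39.8 times the array's 75th percentile in ago2a, 23.4 in ago2c and 72.2 in WT after irradiation, against 63.6 in ago2a, 43.8 in ago2c and 50.9 in WT after mock treatment. For the 10 leaf markers the sums were 1765 in ago2a, 2141 in ago2c and 1480.3 in WT after irradiation, against 1307 in ago2a, 1976 in ago2c and 1505 in WT after mock treatment. In whole seedlings, fewer cells of a type and less RNA per cell cannot be told apart, and the part of this shift in the 10 genes was not tested.

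The third comparison was between genotypes, with 4 arrays of ago2 lines and 2 of WT and a term for irradiation. None of the 10 genes passed (limma, smallest adjusted p = 0.64), where 0.00496% of all loci did, and 0 of the 10 reached an unadjusted p under 0.05 against 3.92% of loci. The log2 differences ran from -0.21 for DHAR2 to 0.35 for FSD2, 8 of 10 above 0, where 11167 of the 20171 loci were. That count was 4 on the mock arrays alone, 5 with array groups blocked and 6 with the slide blocked. With the mean of probes it was 3, and with median scaling 9. The ago2 arrays overlapped the WT arrays for all 10 genes. Over all loci 5.78% had every ago2 array above both WT arrays, and 5.68% had every ago2 array below both. FSD2 averaged 0.94 ± 0.41 on the ago2 arrays (SD, n = 4) and 0.58 on the 2 WT arrays, and its difference was 0.61 without ago2a and 0.090 without ago2c. DHAR2 averaged 0.47 ± 0.35 on the ago2 arrays (SD, n = 4) and 0.68 on the 2 WT arrays, with a difference of -0.48 without ago2a and 0.061 without ago2c. APX1 averaged 4.75 ± 0.19 on the ago2 arrays (SD, n = 4) and 4.75 on the 2 WT arrays.

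These values again rested on the probe. Within the first array group, ago2a mock minus WT mock lay between -0.30 and 0.43 over the 29 bright probes, with 21 of 29 above 0, against 45.8% of the 26170 bright probes of all loci. Between groups, ago2c mock minus WT mock ran from -1.52 to 0.66, with 8 of 29 above 0, against 52.1% of bright probes, and 12 at least 2-fold lower, against 4.8%. None of these 12 was the brightest probe of its gene. Of the 29 probes 19 were other than the brightest, against 7273 of the 26170, so these shares compare unlike sets of probes. CAT3 held 9 of the 29 and APX1 7, and probes of 1 gene are not independent of each other. With the probes averaged, 3 of the 10 genotype differences were above 0, and CAT3 was at -0.57 and APX1 at -0.76. WT is a single line, and both ago2c arrays lay on a slide of their own, so for ago2c slide, array group and line cannot be told apart.

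The 10 genes differed in how they varied together over the 6 arrays, which share their probes and scaling. The closest pair was CAT1 and CAT3 (Pearson r = 0.98, n = 6 arrays), neighbours on the chromosome, followed by FSD2 and TAPX (r = 0.97), whose products both work in the chloroplast. DHAR2 ran against TAPX (r = -0.71) and FSD2 (r = -0.63). Among 2864 loci that were bright on all arrays and spanned at least 1 (log2), the 3 most like FSD2 were AT2G44640 (r = 0.99), AT3G09250 (r = 0.99) and CPSRP54 (AT5G03940, r = 0.99), which encodes the chloroplast signal recognition particle protein. Those most like DHAR2, the gene with the second widest range, were the stress-related NAC factor gene NAC019 (AT1G52890, r = 0.99), the WRKY factor gene WRKY38 (AT5G22570, r = 0.98) and MAPKKK21 (AT4G36950, r = 0.98). With 6 arrays and this many loci such values are a description only.

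Other genes of the antioxidant system were taken from 8 lists of 62 genes, of which 56 were tested. None of the 56 passed in any of the 3 comparisons (limma, smallest adjusted p = 0.14 for irradiation, 0.64 for genotype and 0.19 for the response difference), and unadjusted p under 0.05 was reached by 4 for irradiation, 2 for genotype and 3 for the response difference, against 13.9%, 3.92% and 8.8% of all loci. After irradiation 41 of the 56 had a mean above 0, with a median of 0.084. In the same compartments as the 10 genes, the chloroplast superoxide dismutase gene FSD3 had 0.35 in ago2a, 0.35 in ago2c and 0.030 in WT, while CSD2, the copper-zinc enzyme of the chloroplast, had 0.011 in ago2a, 0.14 in ago2c and -0.43 in WT. Of the other ascorbate peroxidase genes, APX3 of the peroxisome membrane had 0.15 in ago2a, 0.18 in ago2c and 0.12 in WT, and APX5 had -0.64 in ago2a, 0.10 in ago2c and 0.31 in WT.

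Among the genes that recycle ascorbate and glutathione, 8 were tested, 6 of them above 0. MDAR1, a monodehydroascorbate reductase, had a response of 0.22 in ago2a, 0.35 in ago2c and 0.25 in WT. MDAR3, of the same enzyme family, stood out with -1.36 in ago2a and -2.05 in ago2c against 0.22 in WT (limma adjusted p of the difference = 0.19), as 5 of 10 root markers also did in sign. Of the 7 genes of ascorbate and glutathione synthesis, GSH1, for the first step to glutathione, had the highest mean, 0.18, and VTC4 the lowest, -0.0022. Of the 7 genes related to glutathione peroxidases, GPX7 had 0.67 in ago2a and 0.36 in ago2c against -0.29 in WT, and GPX8 had -0.26 in ago2a and -0.062 in ago2c against 0.26 in WT.

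Of 8 peroxiredoxin genes, the chloroplast 2CPA had 0.73 in ago2a, 0.26 in ago2c and -0.087 in WT, and PRXIIC had -0.78 in ago2a, -1.12 in ago2c and -0.10 in WT. Genes of photorespiration, the pathway that forms the peroxide that CAT2 removes, had means above 0 in 8 of 9. They ran from -0.0032 for PGLP1 to 0.28 for the glycolate oxidase gene GOX2. Of 8 transcripts known to answer oxidative stress, 4 were above and 4 below 0. ZAT12, a zinc finger factor gene induced by many stresses, had the smallest adjusted p of all 56 and was lower in every line, with -0.61 in ago2a, -0.64 in ago2c and -0.61 in WT (limma adjusted p = 0.14). FER1, for a ferritin that stores iron, was 3.71-fold higher after irradiation in ago2c alone, at 1.89 (log2), against 0.0098 in ago2a and 0.27 in WT.

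**Figure D4:**
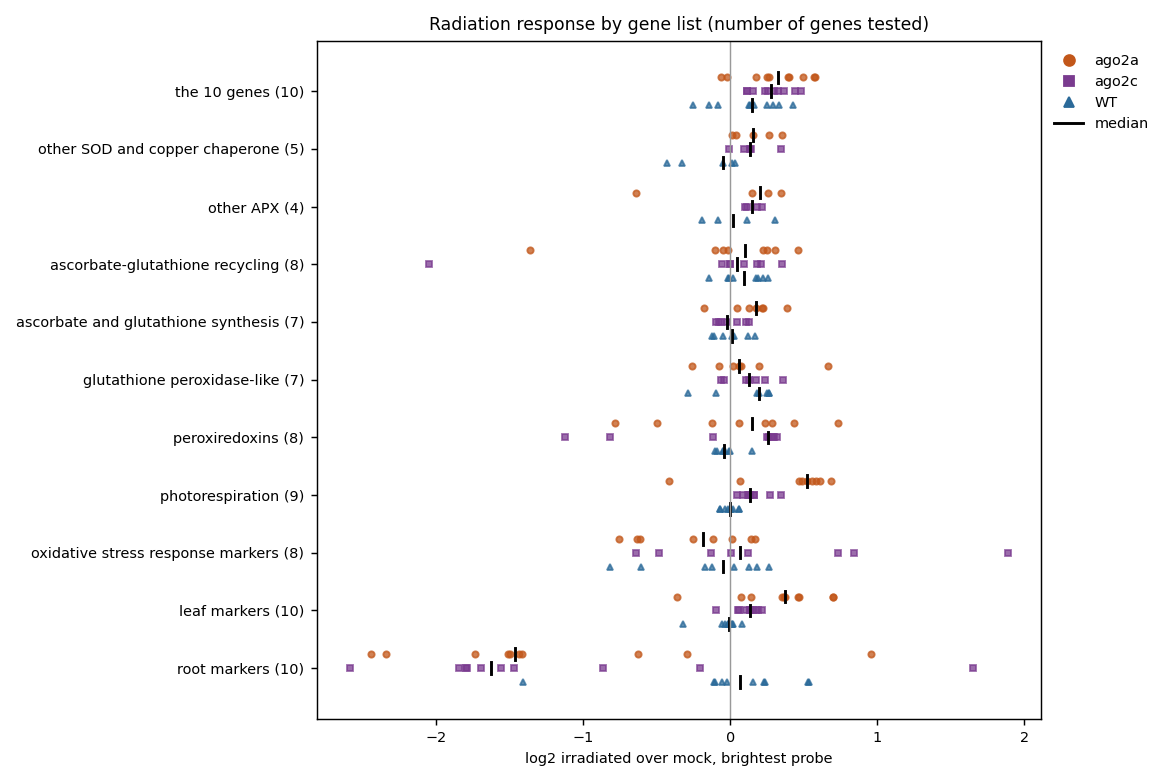
Radiation response of each tested gene on its brightest probe, as log2 irradiated over mock, by gene list and line, with the median of each list and line as a bar. The 10 genes lie close to 0 with medians of 0.33 in ago2a, 0.28 in ago2c and 0.15 in WT, while the root markers of both ago2 lines lie mostly below -1.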

How the data were processed

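The authors deposited scanner files of spot intensity from Feature Extraction 11.0.1.1, background-corrected in the processed signal, per the file headers, and RNA was pooled before labelling, per the labels' protocols. The authors' deposited series matrix holds a linear ratio of unstated scale, with column medians between 0.878 and 1.06. Between arrays it followed the processed signal divided by the array's median for 99.99% of bright probes within 0.01 (log2), and it served as an alternative. Control spots were left out, outlier flags removed 53 of the remaining 43603 probes, and 34309 probes were matched to a locus through RefSeq accessions (TAIR10.1 gene table). Probes well above background on at least 2 of 6 arrays entered. Values were log2 processed signal minus the 75th percentile of the array, and the brightest probe stood for a locus. Tests over 20171 loci used limma 3.58.1 (R 4.3.3), with Benjamini-Hochberg adjustment at 0.05 and residual degrees of freedom of 2 (irradiation, line as a block), 3 (genotype) and 1 (response difference). For the radiation response the lines stand in for replicates, and for genotype both arrays of a line count as separate samples. The p-values thus measure only the spread between these pooled samples, and those for genotype mix spread within and between lines. The fits were tested on simulated data. There, small changes were mostly missed, and calls for the response difference were often false. Alternatives were other scalings, normexp (on median spot signals), the filter on dim probes, the mean of probes or another probe, blocks for slide or array group or no block, mock or irradiated arrays alone, robust or trended variances, a 1.5-fold threshold, and each line left out. The 10 genes, the gene lists and the alternatives were chosen with earlier results of these data known. Of the other antioxidant genes, those past a test, those 2-fold changed the same way in 2 lines or more, and the highest and lowest of each list were named. For the 2 genes with the widest range the 3 loci of highest correlation were named.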

Additional observations from a re-analysis of the deposited data

Results flagged for a closer look

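For 3 of the 10 genes the response had one sign in both ago2 lines and the opposite sign in WT. The difference between the ago2 lines and WT was 0.51 for CAT2, 0.59 for FSD2 and 0.34 for TAPX (log2). The test of this difference did not pass for any of them (limma adjusted p = 0.84 for CAT2, 0.71 for FSD2 and 0.91 for TAPX), and 16.3% of all loci showed this arrangement of signs. Each of the 3 genes has a single probe. Without ago2a the TAPX difference was 0.19. The same arrangement was found in 5 of 10 leaf markers and 5 of 9 photorespiration genes, and their part in it was not tested.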

How the results depend on the processing

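None of the 10 genes passed in any alternative run, with smallest adjusted p-values (limma) between 0.19 and 0.80 for irradiation, 0.16 and 1.00 for genotype and 0.52 and 1.00 for the response difference, and with 1 to 3 residual degrees of freedom a missed threshold does not show that a gene did not differ. On gene-level values, the mean of probes included, none was 2-fold changed in a line, while 9 single probes were lower in ago2a by 2-fold or more. The irradiation fit compared the treatments within each line, and the labels give no replicate numbers for any other pairing. The loci called for irradiation, 48, were 94 with normexp, 82 with median scaling or the authors' values, 97 with trended variances, 103 with no block, 75 with probes bright on all arrays, 1 with no filter, 0 with array groups blocked and 0 to 1095 with a line left out. For genotype, 1 in the fit reported, they were 0 to 4. For the response difference, 0, they were 557 with normexp, 637 with median scaling, 640 with the authors' values, 212 with trended variances and 1 with probes bright on all arrays. Leaving out a line moved 10 of 30 irradiation values, 13 of 20 genotype values and 13 of 20 response differences of the 10 genes by over 1.5 times. The response difference has no residual spread with the array group as a block or with a line left out, so these are values with no test. Scaling to array medians raised the median of all loci from 0.014 to 0.10 for irradiation, from 0.031 to 0.14 for genotype and from 0.062 to 0.20 for the response difference.

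For irradiation the array group as a block and leaving out ago2a gave the same values, so these are not separate checks. Of 159 irradiation values 15 had the opposite sign under an alternative. They were CAT2 with quantile scaling (-0.045), with array groups blocked (-0.071), and from -0.071 to 0.25 with a line left out, APX1 with the mean of probes (-0.094), and otherwise single probes in place of the brightest, at -0.067 (CAT1), -0.11, -0.10 and -0.070 (CAT3), -0.16 (FSD1), -0.19, -0.22, -0.25, -0.15 and -0.24 (APX1) and -0.046 (DHAR2).

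Of 169 genotype values 45 had the opposite sign. Among them the slide as a block and leaving out ago2c gave the same values, so these are not separate checks. With normexp APX1 was at -0.0079, and with quantile scaling FSD1 was at -0.039 and APX1 at -0.048. MSD1 was at 0.051 with median scaling and 0.050 with the authors' values. With the mean of probes the values were -0.037 (CAT1), -0.57 (CAT3), -0.38 (FSD1), -0.76 (APX1) and -0.31 (SAPX). With the slide as a block they were -0.0037 (APX1), -0.11 (SAPX), -0.056 (TAPX) and 0.061 (DHAR2), and leaving out an ago2 line gave -0.0037 to 0.018 (APX1), -0.11 to 0.15 (SAPX), -0.056 to 0.36 (TAPX) and -0.48 to 0.061 (DHAR2). With the array group as a block they were -0.10 (CAT2), -0.032 (FSD1), -0.19 (FSD2), 0.014 (MSD1), -0.11 (SAPX), -0.28 (TAPX) and 0.33 (DHAR2). On the mock arrays alone they were -0.072 (CAT2), -0.0023 (APX1), -0.081 (SAPX) and -0.017 (TAPX). Single probes gave -0.22 (CAT1), -0.043, -0.87, -0.84, -0.72, -1.18, -1.13 and -0.999 (CAT3), -0.83 (FSD1), -0.38, -1.08, -1.03, -1.14, -0.84 and -0.86 (APX1) and -0.65 (SAPX).

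Of 139 response differences 32 had the opposite sign. Among them the array group as a block and leaving out ago2a gave the same values, so these are not separate checks. APX1 was at -0.015 with normexp, and with quantile scaling CAT3 was at -0.19, FSD1 at -0.056 and APX1 at -0.14. MSD1 was at 0.067 with median scaling and 0.068 with the authors' values. With the mean of probes the values were -0.013 (CAT1), -0.67 (CAT3), -0.16 (FSD1), -0.52 (APX1) and -0.22 (SAPX). With the array group as a block CAT3 was at -0.095 and MSD1 at 0.019, and leaving out an ago2 line gave -0.095 to 0.24 (CAT3), -0.16 to 0.019 (MSD1) and -0.11 to 0.15 (APX1). Single probes gave -0.17 (CAT1), -0.19, -0.92, -0.99, -0.97, -1.10, -1.07 and -1.05 (CAT3), -0.46 (FSD1), -0.44, -0.73, -0.72, -0.82, -0.60 and -0.37 (APX1) and -0.65 (SAPX). The cause of these changes of sign was not tested.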
